A study of Mus musculus with 9 samples.

Results

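Proteasome genes were followed through a time course of lipopolysaccharide (LPS), a component of bacterial outer membranes, in the mouse microglial cell line BV2. The members are the genes of the deposited expression table whose pathway annotation holds the exact term Proteasome and whose mean was at least 1 FPKM (sequenced fragments adjusted for gene length and library size) over all libraries. The rule gave 37 of the 6462 listed genes, and no gene with the term fell below that level. They comprise 12 constitutive subunits of the 20S core, 2 immunoproteasome subunits, 18 subunits of the 19S regulatory particle and 5 activators or inhibitors. Psma1, Psmb1, Psmb9, Sem1, Psme4 and the assembly factor Pomp were not analysed here. RNA was sequenced from 3 groups of 3 libraries: cells with no LPS (0 h), cells given LPS at 200 ng/ml for 1 h, and cells given the same dose for 12 h. The labels name no other agent or genetic change in any group. BV2 is a single line, and no untreated cells of 1 h or 12 h were part of the comparison. Separate cultures within a group are not stated in the labels, and the spread behind each p-value may be technical. In bulk RNA, fewer cells that express a gene and less RNA per cell cannot be told apart.

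The 26S proteasome degrades proteins that carry ubiquitin chains. Its 20S core is a barrel of stacked rings, with α subunits in the outer rings and β subunits in the inner rings, and some of the β subunits cut peptide bonds. The 19S particle caps the barrel: its ATPases unfold the substrate and feed it in, and its other subunits bind ubiquitin and remove it. Cells that receive inflammatory or interferon signals can build an immunoproteasome, in which Psmb8, Psmb9 and Psmb10 take the places of Psmb5, Psmb6 and Psmb7 and change the peptides that are cut for MHC class I. PA28 activators, made of Psme1 and Psme2 or of Psme3 alone, open the barrel without ATP. NRF1, encoded by Nfe2l1, is known to raise proteasome genes through antioxidant response elements when proteasome capacity is short. Interferons are known to raise immunoproteasome and PA28 genes.

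Promoter sequences are shown for the measured catalytic genes with a promoter entry and for Adrm1, the member with the largest difference at 12 h. The catalytic genes are the constitutive Psmb5 and Psmb6, and Psmb8 and Psmb10, the inducible part of the core. Each run is the 250 bases before the annotated start, written 5′ to 3′ on the gene's strand, from RefSeq promoters of build GRCm38.p6 matched by symbol, with motif matches in capitals. Psmb5 lies at chr14:54617996-54618245 (minus strand), Psmb6 at chr11:70525107-70525356 (plus), Psmb8 at chr17:34197945-34198194 (plus), Psmb10 at chr8:105938393-105938642 (minus) and Adrm1 at chr2:180171338-180171587 (plus).
Psmb5: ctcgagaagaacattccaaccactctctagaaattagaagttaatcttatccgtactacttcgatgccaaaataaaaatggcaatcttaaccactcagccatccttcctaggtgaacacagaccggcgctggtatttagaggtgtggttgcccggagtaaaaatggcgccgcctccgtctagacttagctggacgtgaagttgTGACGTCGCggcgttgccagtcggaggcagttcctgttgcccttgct
Psmb6: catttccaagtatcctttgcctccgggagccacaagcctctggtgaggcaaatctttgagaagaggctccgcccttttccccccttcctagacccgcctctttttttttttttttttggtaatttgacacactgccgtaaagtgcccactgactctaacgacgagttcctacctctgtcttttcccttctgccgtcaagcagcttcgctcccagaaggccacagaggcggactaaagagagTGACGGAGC
Psmb8: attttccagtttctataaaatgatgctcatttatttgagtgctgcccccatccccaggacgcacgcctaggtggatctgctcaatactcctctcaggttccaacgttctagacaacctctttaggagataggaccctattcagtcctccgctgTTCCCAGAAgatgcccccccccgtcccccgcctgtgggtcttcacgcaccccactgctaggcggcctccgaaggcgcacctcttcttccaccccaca
Psmb10: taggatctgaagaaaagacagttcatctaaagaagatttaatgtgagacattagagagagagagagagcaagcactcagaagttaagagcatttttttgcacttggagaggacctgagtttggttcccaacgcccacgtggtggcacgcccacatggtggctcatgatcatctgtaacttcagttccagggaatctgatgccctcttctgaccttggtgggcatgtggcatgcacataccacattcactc
Adrm1: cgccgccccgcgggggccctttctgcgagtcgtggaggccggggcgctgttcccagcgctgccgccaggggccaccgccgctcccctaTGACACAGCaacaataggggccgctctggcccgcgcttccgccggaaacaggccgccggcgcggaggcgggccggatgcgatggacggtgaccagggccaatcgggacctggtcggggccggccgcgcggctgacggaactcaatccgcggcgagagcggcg
The capitals mark TGACNNNGC, the core of the antioxidant response element, in Psmb5, Psmb6 and Adrm1, and TTCNNNGAA, the gamma-activated sequence, an element of interferon-responsive promoters, in Psmb8. The matches begin 47, 9, 162 and 97 bases before the start of Psmb5, Psmb6, Adrm1 and Psmb8, and the Psmb10 window holds none of the 4 motifs searched on both strands. Of the 37 members, 32 had a promoter entry. The antioxidant core was present in 5 of the 32 (15.6%; Adrm1, Psmb5, Psmb6, Psmc6 and Psmd12), against 11.5% of all 27025 genes with an entry and 14.5% of the 5072 listed genes with one. The gamma-activated sequence was present in Psmb8 alone (3.12%, against 8.13% of all and 7.31% of listed genes). GAAANNGAAA, the interferon-stimulated response element core, was present in Psmb3 and Psmd4 (6.25%, against 3.46% of all and 4.1% of listed genes). The κB motif was present in 5 members (15.6%, against 8.23% of all and 11.3% of listed genes): Psma6, Psma7, Psmd11, Psmd12 and Psmd13. No match overlapped a match of another motif. The median log2 difference at 12 h was 0.33 in the 5 members with the antioxidant core and 0.23 in the 27 without it. It was 0.25 with and 0.27 without the interferon-stimulated core, and 0.30 with and 0.27 without the κB motif. Psmb8, with the gamma-activated sequence, stood at 0.31 beside a median of 0.27 in the others. These are descriptions of the windows and were not tested.

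Nearly all proteasome genes were higher after 12 h of LPS, by small amounts. At 12 h against untreated cells, 34 of the 37 members passed the threshold as higher and 0 as lower (limma on log2(FPKM + 1), adjusted p under 0.05; 35 higher and 0 lower at an unadjusted p under 0.05). That is 91.9% of the members, beside 41.1% of the 5643 tested genes called higher and 40.6% called lower. The listed genes had themselves been selected by the authors for differing between these groups, so these shares describe a selected table. The median difference of the members was 0.26 on the log2 scale, or 1.2-fold, beside 0.03 over all tested genes. In 35 members all 3 libraries at 12 h lay above all 3 untreated libraries, which holds for 41.9% of tested genes. Adrm1 had the largest difference, 0.52, and Psmc3 the smallest, 0.00. Besides Psmc3, Psma5 (0.08) and Psmf1 (0.05) did not pass.

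The split depended on scaling. When the libraries were forced to the same distribution (quantile normalization), 19 members (51.4%) were called higher and 5 (13.5%) lower at 12 h, with a median of 0.08. In that setting 37.6% of all tested genes were called higher and 43.7% lower, with a median of -0.02. Quantile normalization moved the members by a median of -0.17, and all tested genes by 0.02. The members are abundant, with a median level of 83.95 FPKM against 12.89 over all tested genes, and the summed FPKM of the listed genes was 223720 to 228207 at 12 h against 195872 to 198075 untreated. Among the 2734 tested genes within the members' range of levels, the median difference was 0.08 as deposited and -0.01 after quantile normalization. The share of listed FPKM held by the members was 1.92% to 1.96% untreated, 1.90% to 1.95% at 1 h, and between 2.00% and 2.02% at 12 h. The 19 members called higher at 12 h after quantile normalization were also higher under every other one of 20 settings. Those 19 were Psma6, Psmb4, Psmb5, Psmb6, Psmb8, Psmb10, Psmc1, Psmc2, Psmc4, Psmd1, Psmd3, Psmd4, Psmd8, Psmd11, Psmd12, Psmd14, Adrm1, Psme2 and Psme2b. In every setting but quantile normalization 33 members were higher. The share of all tested genes higher in every setting is not given here. Psma2, Psma7, Psmb3 and Psmd6 were called higher as deposited and lay below 0 without passing after quantile normalization, and Psma4, Psmb2 and Psmd2 passed as higher in one and as lower in the other.

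**Figure D1:**
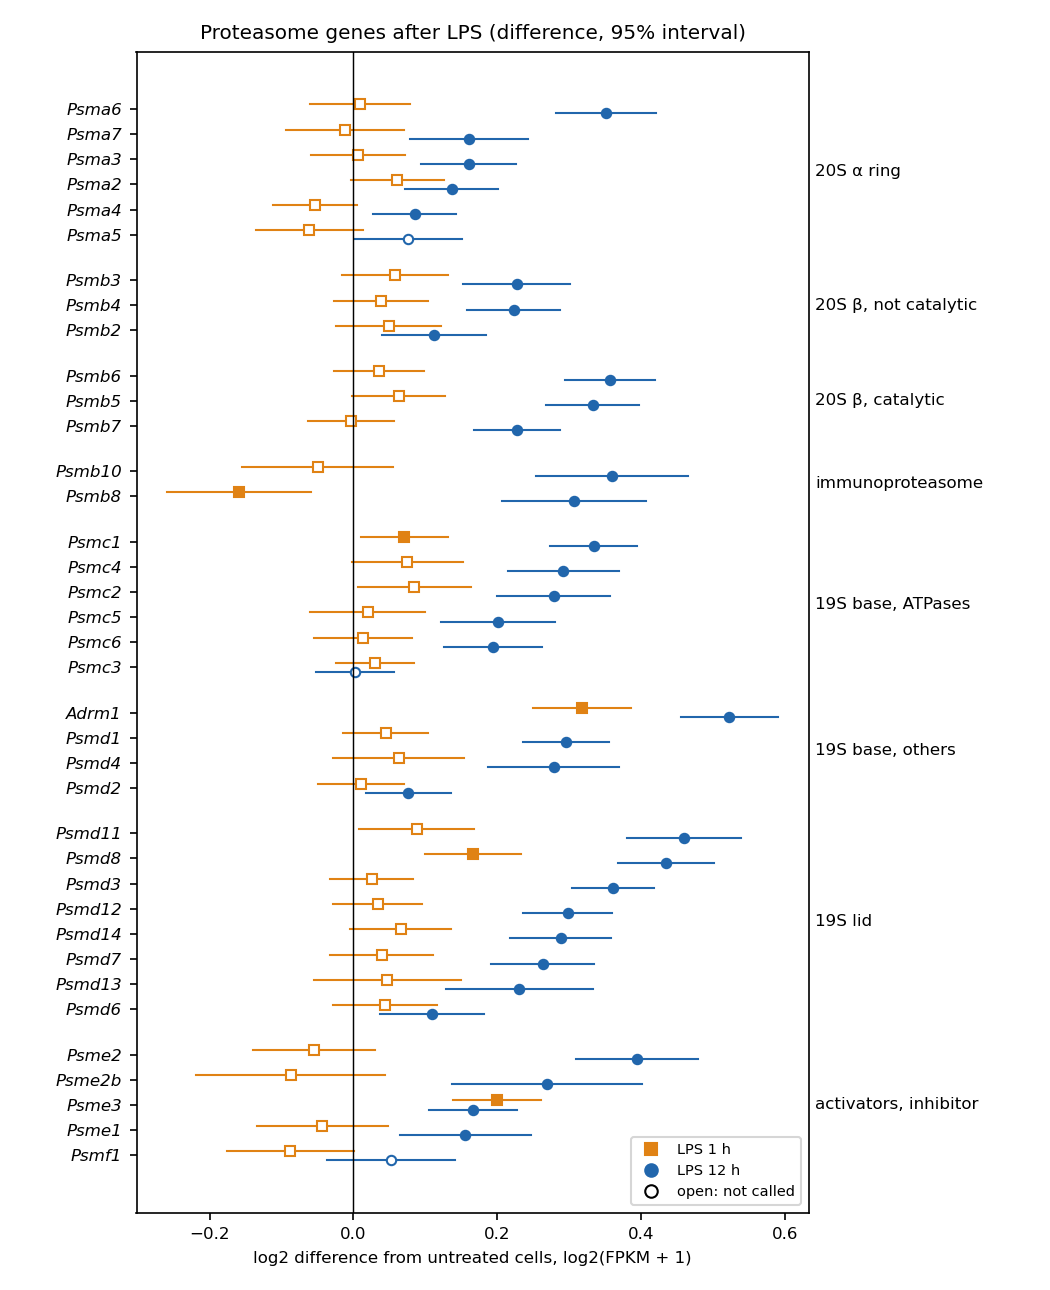
Log2 difference from untreated cells on the log2(FPKM + 1) scale (x axis) for each of the 37 members, ordered by role; orange squares are LPS 1 h, blue circles LPS 12 h, lines are 95% intervals from limma, and filled symbols passed an adjusted p under 0.05. At 12 h 34 filled circles lie to the right of 0, from Psmd2 at 0.08 to Adrm1 at 0.52, and at 1 h 5 squares are filled.

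**Figure D2:**
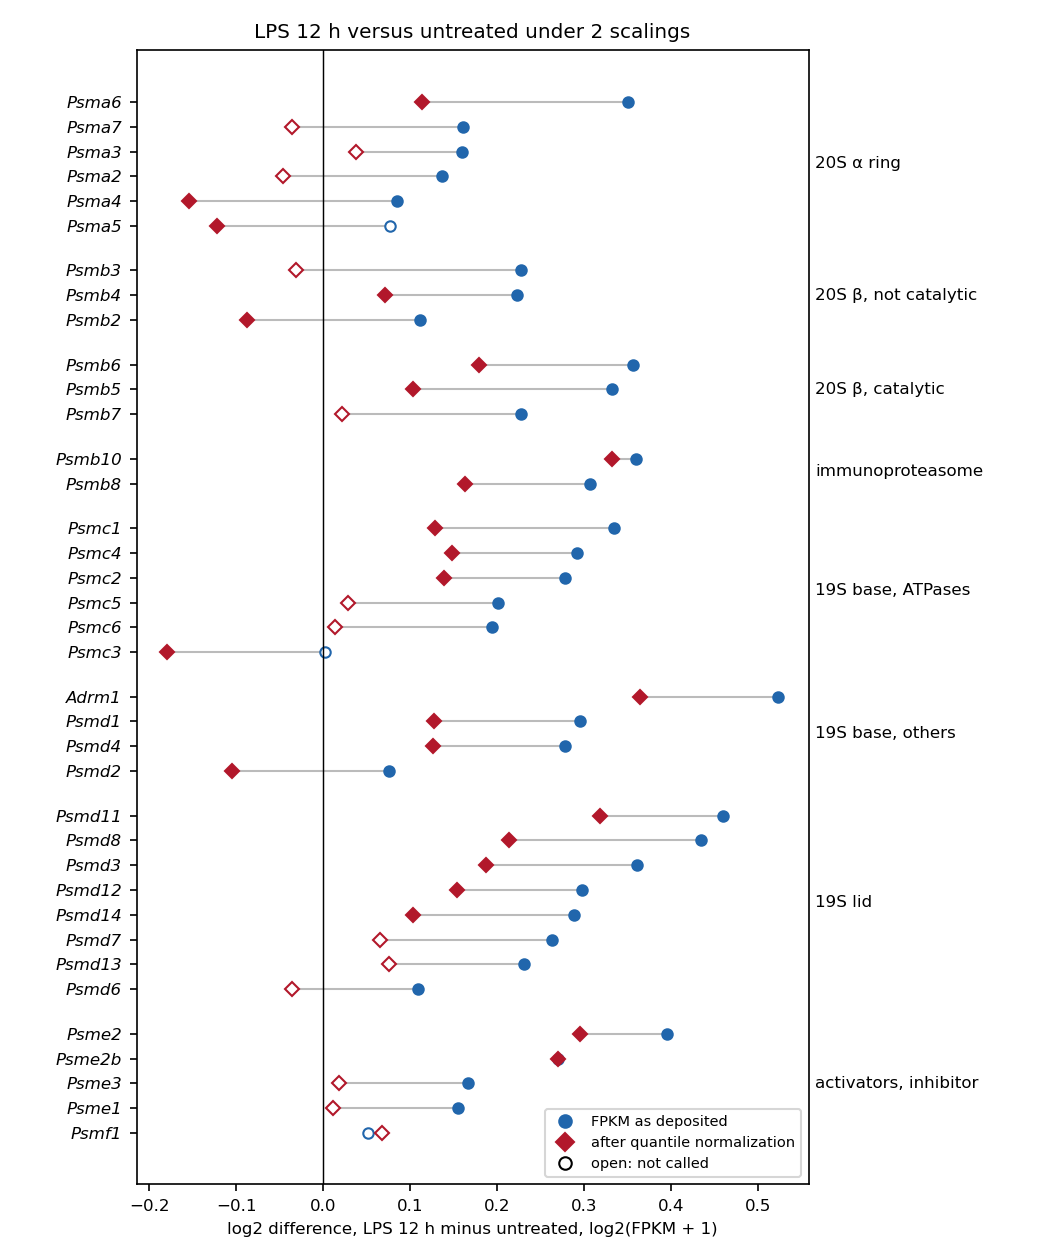
Log2 difference of LPS 12 h minus untreated (x axis) for each member with FPKM as deposited (blue circles) and after quantile normalization (red diamonds); filled symbols passed an adjusted p under 0.05. The diamonds lie to the left for most members, with a median of 0.08 against 0.26, and 5 filled diamonds lie below 0.

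The α subunits form the outer rings and the gate of the core. At 12 h 5 of the 6 measured α genes (Psma2, Psma3, Psma4, Psma6 and Psma7) were higher, with a median log2 difference of 0.15, the lowest of the 8 role groups. Psma6 was the highest of them: its FPKM was 186.2, 176.6 and 177.4 in the untreated libraries, 186.9, 178.8 and 178.0 at 1 h, and 221.8, 230.6 and 237.5 at 12 h. The 12 h libraries stood apart from the other 6, and the log2 difference from untreated was 0.35 (SE 0.03, adjusted p = 1.39e-07). Psma5 was the lowest: 90.6, 92.1 and 92.3 FPKM untreated, 92.3, 88.3 and 83.0 at 1 h, and 95.8, 96.3 and 98.1 at 12 h. Its 12 h libraries were all above the untreated ones, but the difference of 0.08 did not pass (adjusted p = 0.0539). Under quantile normalization the α group had 1 member higher (Psma6) and 2 lower (Psma4 and Psma5).

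The β subunits that carry no active site, Psmb2, Psmb3 and Psmb4, were all 3 higher at 12 h. Psmb3 had 207.3, 189.2 and 204.1 FPKM untreated, 210.3, 213.8 and 201.1 at 1 h and 233.3, 232.5 and 237.2 at 12 h. The log2 difference at 12 h was 0.23 (SE 0.03, adjusted p = 2.47e-05), and the 1 h libraries overlapped the untreated ones. Psmb2 changed least, with 163.4, 155.6 and 153.5 FPKM untreated, 165.0, 168.2 and 155.7 at 1 h and 168.3, 174.5 and 168.0 at 12 h, a difference of 0.11 (adjusted p = 0.00699). Psmb4, the most abundant member of all at 318.4 ± 8.10 FPKM untreated (SD, n = 3), had 371.8 ± 12.0 at 12 h. Of these 3 genes only Psmb4 stayed higher after quantile normalization (0.07, adjusted p = 0.0103).

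The constitutive catalytic genes, with a median difference of 0.33, were all 3 higher at 12 h. Psmb6, the caspase-like site, had 297.8, 281.6 and 284.7 FPKM untreated, 298.9, 301.6 and 285.0 at 1 h, and 370.6, 363.5 and 372.8 at 12 h. The 1 h libraries overlapped the untreated ones and the 12 h libraries stood above both, with a log2 difference of 0.36 (SE 0.03, adjusted p = 3.94e-08). Psmb5, the chymotrypsin-like site, was higher by 0.33 at 12 h (adjusted p = 1.25e-07), and Psmb7, the trypsin-like site, by 0.23 (adjusted p = 2.67e-06). Psmb7 read 161.0, 157.3 and 153.5 FPKM untreated, 154.9, 158.3 and 157.3 at 1 h, and 180.6, 189.4 and 183.0 at 12 h. None of the 3 passed at 1 h, where the differences ran from 0.00 (Psmb7) to 0.06 (Psmb5). After quantile normalization Psmb5 and Psmb6 remained higher at 12 h and Psmb7 did not pass (0.02).

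Both measured immunoproteasome genes were higher at 12 h, with a median of 0.33, and Psmb8 was lower at 1 h. Psmb8, which replaces Psmb5, had 47.1, 44.2 and 45.8 FPKM untreated, 38.6, 43.6 and 40.5 at 1 h, and 57.7, 53.5 and 59.3 at 12 h. The 3 groups did not overlap: the 1 h libraries were lowest and the 12 h libraries highest. At 1 h Psmb8 fell by 0.16 on the log2 scale (SE 0.05, limma adjusted p = 0.00937), and at 12 h it was 0.31 above untreated (SE 0.05, adjusted p = 2.50e-05). Without replicate 1 of the 1 h group, the lowest library, the 1 h difference was -0.12 and did not pass (adjusted p = 0.0532). Psmb10, which replaces Psmb7, had 17.5, 15.7 and 16.9 FPKM untreated, 15.8, 16.0 and 16.6 at 1 h, and 21.04, 20.8 and 23.4 at 12 h. Its 1 h and untreated libraries overlapped (-0.05, adjusted p = 0.4) and its 12 h libraries were all higher (0.36, SE 0.05, adjusted p = 8.29e-06). Psmb8 and Psmb10 were called higher at 12 h under all 20 settings. On chromosome 17 Psmb8 lies between Tap1 and Tap2, which encode the transporter that carries peptides to MHC class I.

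**Figure D3:**
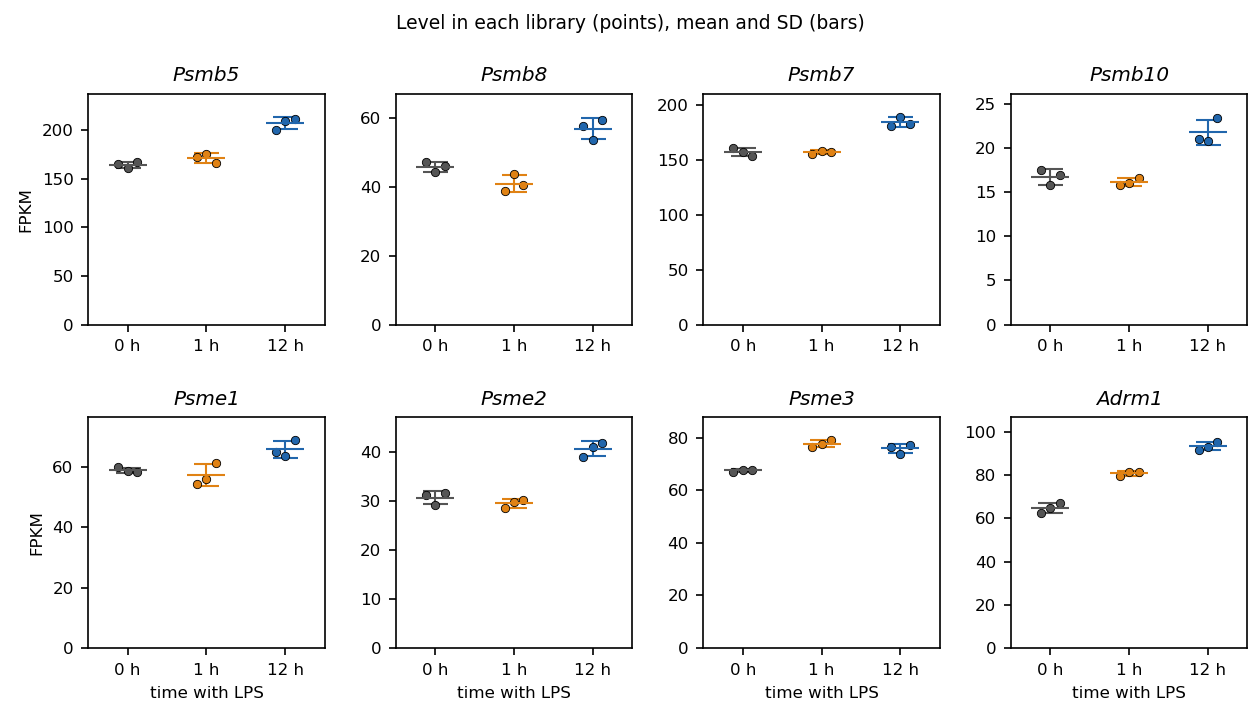
FPKM (y axis, from 0) of 8 members at 0, 1 and 12 h of LPS (x axis); points are the 3 libraries of a group, and bars are the mean with its SD. Psmb8 is lowest at 1 h and highest at 12 h, Psme3 and Adrm1 are already higher at 1 h, and Psmb5, Psmb7, Psmb10, Psme1 and Psme2 are highest at 12 h.

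Whether the immunoproteasome genes changed more than their partners was read from the ratio within each library, which a single factor per library cannot move, although quantile normalization can. Psmb8 made up 22.2%, 21.5% and 21.6% of the summed FPKM of Psmb8 and Psmb5 in untreated cells, 18.3%, 19.9% and 19.6% at 1 h, and 22.4%, 20.3% and 21.9% at 12 h. The 1 h libraries lay below all others, and the 12 h libraries overlapped the untreated ones. The mean log2 ratio was -1.84 ± 0.03 untreated, -2.07 ± 0.08 at 1 h and -1.87 ± 0.09 at 12 h (SD, n = 3). It differed over the 3 groups in an exact permutation F test over 1680 arrangements (p = 0.0321, adjusted over 2 ratios 0.0357). The difference at 12 h against untreated was -0.02 (exact two-sided permutation p = 0.9), and that at 1 h was -0.23 (exact p = 0.1, the smallest that 3 libraries against 3 allow).

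Psmb10 made up 9.79%, 9.10% and 9.94% of the summed FPKM of Psmb10 and Psmb7 untreated, 9.24%, 9.16% and 9.55% at 1 h, and 10.4%, 9.90% and 11.3% at 12 h. The 12 h libraries overlapped the untreated ones, since 9.90% lies below 9.94%. The log2 ratio differed over the 3 groups (exact permutation F test, p = 0.0357, adjusted 0.0357), with pairwise differences of 0.15 at 12 h against untreated (exact p = 0.2) and 0.20 at 12 h against 1 h (exact p = 0.1). Both F tests rest on few libraries: adding 1 FPKM to each value gave adjusted p = 0.0607 for either ratio, and leaving out single libraries gave 0.0143 to 0.125. For the Psmb8 ratio the call was lost without any one of the untreated or 1 h libraries, or without replicate 3 at 12 h; for the Psmb10 ratio it was lost without any one library except replicate 2 at 12 h. The immunoproteasome genes stayed the less abundant partners in every library. Their summed FPKM equalled 3.02% to 3.11% of that of the 12 constitutive core genes untreated, 2.61% to 2.85% at 1 h and 3.14% to 3.43% at 12 h. Of those 12, only Psmb5, Psmb6 and Psmb7 have immunoproteasome counterparts, so these percentages are not the share of immunoproteasomes.

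**Figure D4:**
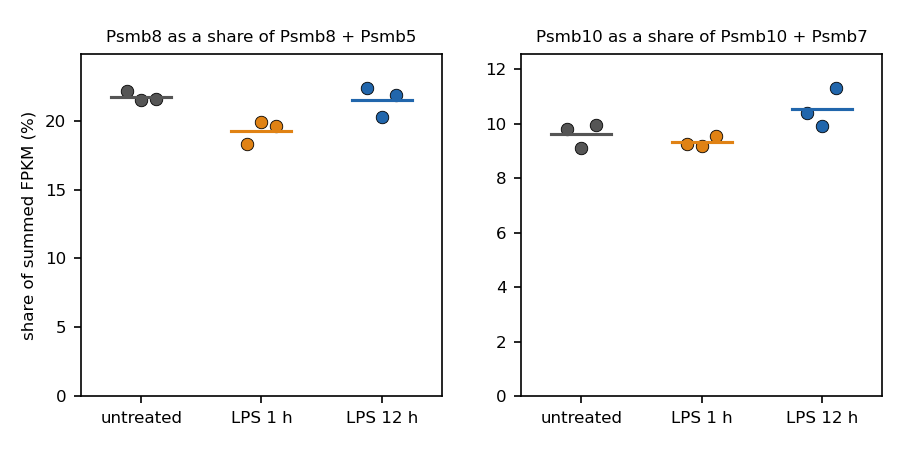
Share of summed FPKM (y axis, percent, from 0) held by Psmb8 within Psmb8 plus Psmb5 (left) and by Psmb10 within Psmb10 plus Psmb7 (right); points are libraries and lines are group means. The Psmb8 share is lowest in the 3 libraries at 1 h (18.3% to 19.9%), and the Psmb10 share reaches 11.3% at 12 h.

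In the base of the 19S particle, Psmc1 to Psmc6 encode the ATPase ring. At 12 h 5 of the 6 were higher, with a median of 0.24. Psmc1 had 142.9, 145.9 and 152.3 FPKM untreated, 154.4, 153.9 and 154.9 at 1 h and 183.3, 184.0 and 189.5 at 12 h, so the groups did not overlap. The rise was 0.07 at 1 h (adjusted p = 0.0441), and by 12 h it had reached 0.33 (SE 0.03, adjusted p = 5.36e-08). Psmc3 was the exception: 115.6, 112.7 and 113.6 FPKM untreated, 117.8, 116.0 and 115.3 at 1 h, and 114.1, 115.4 and 113.0 at 12 h. Its groups at 12 h and untreated overlapped, with a difference of 0.00 and a 95% interval of -0.05 to 0.06, which excludes the members' median difference of 0.26. After quantile normalization Psmc1, Psmc2 and Psmc4 remained higher and Psmc3 was called lower (-0.18).

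The other base subunits are the scaffolds Psmd1 and Psmd2 and the ubiquitin receptors Psmd4 and Adrm1 (Rpn13). All 4 were higher at 12 h. Adrm1 had 62.3, 64.9 and 66.9 FPKM untreated, 79.5, 81.6 and 81.6 at 1 h, and 91.8, 92.8 and 95.5 at 12 h, so each group lay above the one before it. The log2 difference was 0.32 at 1 h (SE 0.03, adjusted p = 1.07e-06) and 0.52 at 12 h (adjusted p = 1.28e-09), or 1.25-fold and 1.44-fold of the untreated mean. It was called higher at both times under all 20 settings. The second receptor, Psmd4, was higher by 0.28 at 12 h and did not pass at 1 h (0.06, adjusted p = 0.219). Psmd2, at 155.3, 152.4 and 149.6 FPKM untreated, 156.6, 155.0 and 149.1 at 1 h and 158.5, 163.1 and 160.7 at 12 h, changed least (0.08, adjusted p = 0.0202), and was called lower after quantile normalization (-0.105).

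The 19S lid holds the deubiquitinase Psmd14 (Rpn11), its partner Psmd7 and 6 further measured subunits. All 8 were higher at 12 h, with a median of 0.29. Psmd11 (Rpn6), which clamps the particle onto the core, was highest: 53.7, 49.8 and 53.5 FPKM untreated, 56.7, 57.0 and 53.3 at 1 h, and 70.6, 73.1 and 73.2 at 12 h. The 1 h libraries overlapped the untreated ones and the 12 h libraries stood above both, with a difference of 0.46 (SE 0.04, adjusted p = 3.21e-08). Psmd8 (Rpn12) was the 1 lid gene called higher at 1 h: 161.8, 149.8 and 157.2 FPKM untreated, 176.2, 176.0 and 174.3 at 1 h and 211.4, 205.7 and 217.5 at 12 h, differences of 0.17 (adjusted p = 0.000405) and 0.43 (adjusted p = 8.61e-09) with no overlap between groups. Psmd14 was higher by 0.29, Psmd3 by 0.36, Psmd12 by 0.30, Psmd7 by 0.26 and Psmd13 by 0.23. Psmd6 changed least, with 60.7, 61.6 and 62.2 FPKM untreated, 64.6, 64.5 and 61.3 at 1 h and 63.6, 67.3 and 68.4 at 12 h, a difference of 0.11 (adjusted p = 0.00818). After quantile normalization 5 of the 8 lid genes remained higher and 0 were lower.

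Set side by side, the 12 constitutive core genes had a median difference of 0.19 at 12 h (11 higher) and the 18 genes of the 19S particle 0.28 (17 higher); after quantile normalization the medians were 0.00 (4 higher, 3 lower) and 0.13 (11 higher, 2 lower). The summed FPKM of the 19S genes divided by that of the core genes, which a single factor per library cannot move but quantile normalization can, was 0.750, 0.777 and 0.780 untreated, 0.790, 0.792 and 0.802 at 1 h, and 0.798, 0.794 and 0.787 at 12 h. All 6 LPS libraries lay above the 3 untreated ones, and the 2 LPS groups overlapped. These sums are a description, since subunits differ in level: within the core the highest mean (Psmb4) was 7.88 times the lowest (Psma3) untreated, and within the 19S particle the highest (Psmd8) was 2.99 times the lowest (Psmd11).

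Among the activators, the PA28αβ genes were higher at 12 h than in both other groups, and PA28γ was higher than untreated at both times. Psme2 (PA28β) had 31.2, 29.2 and 31.6 FPKM untreated, 28.5, 29.8 and 30.2 at 1 h, and 39.0, 41.1 and 41.9 at 12 h, a difference at 12 h of 0.40 (SE 0.04, adjusted p = 3.36e-07). Its partner Psme1 (PA28α) had 59.8, 58.6 and 58.2 FPKM untreated, 54.1, 56.1 and 61.2 at 1 h, and 64.9, 63.5 and 68.7 at 12 h, a difference of 0.16 (adjusted p = 0.00369). The 1 h libraries of both overlapped the untreated ones, and neither passed at 1 h (-0.06 for Psme2 and -0.04 for Psme1). Psme3 (PA28γ), a nuclear activator, had 67.1, 67.8 and 67.9 FPKM untreated, 76.5, 77.7 and 79.4 at 1 h, and 76.6, 74.0 and 77.5 at 12 h. Both LPS groups stood above the untreated libraries, by 0.20 at 1 h (SE 0.03, adjusted p = 3.99e-05) and 0.17 at 12 h (adjusted p = 8.24e-05), and they overlapped each other (-0.03 at 12 h against 1 h, adjusted p = 0.277).

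Psme2b, a near copy of Psme2, had 15.1, 13.6 and 15.2 FPKM untreated, 14.3, 14.7 and 12.2 at 1 h, and 17.3, 17.6 and 18.6 at 12 h (0.27, adjusted p = 0.000966). In the GENCODE M21 transcripts 69.3% of its 50-base words also occur in other genes, 68.7% in Psme2, so reads of the pair could be split either way and its value is uncertain. Psmf1 (PI31), which inhibits the core in vitro, had 12.7, 13.7 and 12.8 FPKM untreated, 12.2, 12.6 and 12.0 at 1 h, and 14.0, 13.2 and 13.6 at 12 h. Its 1 h libraries lay below the untreated ones without passing (-0.09, adjusted p = 0.0810), and the 12 h libraries overlapped them (0.05, adjusted p = 0.253). After quantile normalization Psme2 and Psme2b remained higher at 12 h, and Psme1 (0.01) and Psme3 (0.02) did not pass.

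After 1 h few members passed the threshold, and a member that did not pass may still have changed by a small amount. At 1 h against untreated cells 4 of the 37 (10.8%) were higher, Adrm1, Psme3, Psmd8 and Psmc1, and 1 (2.7%), Psmb8, was lower, beside 24.1% of tested genes called higher and 34.9% called lower. The median difference was 0.04 for the members and -0.03 for all tested genes. Of the members 27 lay above 0 and 10 below, beside 2413 and 3230 of the 5643 tested genes. In 6 members all 3 libraries at 1 h lay above all 3 untreated ones, which holds for 26.8% of tested genes. Without replicate 3 of the 1 h group 9 members were called higher. After quantile normalization 3 members were higher (Adrm1, Psme3 and Psmd8) and 12 lower, with a median of -0.06. The 12 are 32.4% of the members, near the 35.6% of all tested genes called lower in that setting, where the median of all tested genes was -0.04. Psmc1 at 0.07 lay close to the threshold and lost its call in 10 of the 19 alternatives, with adjusted p from 0.0549 to 0.463 in them.

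Between 1 h and 12 h, 33 members were higher and 0 lower (33 and 0 also at an unadjusted p under 0.05), beside 41.9% of tested genes called higher and 43.6% called lower. The median was 0.20, against 0.01 over all tested genes, and after quantile normalization 26 were higher and 2 lower (median 0.13), beside 39.7% of all tested genes higher and 44.8% lower. The differences of Psmb8 (0.47), Psme2 (0.45) and Psmb10 (0.41) headed this comparison, ahead of Psmd11 (0.37) and Psme2b (0.36). Psmc3, Psme3, Psmd6 and Psmb2 did not pass. The 12 h and 1 h comparisons with untreated cells share the same 3 untreated libraries.

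Levels were tight within groups. The coefficient of variation of a member within a group had a median of 2.57% and ran from 0.0155% to 9.66%. Summed over the members, FPKM was 3764.0 to 3887.6 untreated, between 3857.9 and 3995.4 at 1 h, and between 4515.9 and 4609.4 at 12 h, so the 12 h libraries stood apart. Untreated means ran from 13.07 FPKM (Psmf1) to 318.4 (Psmb4), a 24.4-fold range, with the immunoproteasome genes, Psmf1, Psme2 and Psme2b toward the low end. Shared sequence also touches members outside the PA28 pair: 54.1% of the 50-base words of Psmb5, 49.1% of Psma5 and 25.7% of Adrm1 occur in other annotated genes, mainly in predicted genes, so part of their reads could have been assigned elsewhere. By the table's own annotation, 36 of the 37 members carry the term proteasome complex, 15 have no other pathway term, and 4 (Psme1, Psme2, Psme2b and Psme3) are also placed in antigen processing and presentation. The members lie on 14 chromosomes, and no 2 are adjacent among protein-coding genes. Psme1 and Psme2 lie close together on chromosome 14, with only Emc9 between them.

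Genes around the proteasome were taken from fixed lists. Of the 9 assembly factors 3 were listed: Psmd10 (gankyrin) was higher by 0.47 and Psmd5 by 0.32 at 12 h, both chaperones of the ATPase base, and Psmg2, a chaperone of the α ring, was lower (-0.39). These directions held after quantile normalization. Of the 7 tested genes of a list around NRF1, which also holds Akirin2 and Nfe2l2, 5 were higher at 12 h and 1, Nfe2l2, lower (median 0.20). These are 71.4% and 14.3%, beside 41.1% of all tested genes called higher and 40.6% called lower. Nfe2l1 itself rose from 17.6 ± 0.965 to 41.6 ± 0.674 FPKM (1.20, adjusted p = 3.54e-12), and Akirin2, which brings proteasomes into the nucleus, was higher by 0.27. Nfe2l2, which encodes the related factor NRF2, was at 70.4 ± 1.12 FPKM untreated, 160.8 ± 1.40 at 1 h and 62.4 ± 2.60 at 12 h (differences of 1.18 and -0.17, both called). After quantile normalization 4 genes of this list were higher at 12 h (57.1%, beside 37.6% of all tested genes). Vcp, the segregase that extracts ubiquitinated proteins, no longer passed (0.03).

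Of 12 tested genes for ubiquitin and its handling at the proteasome, 9 were higher at 12 h and 1, Ubqln4, lower (-0.28), with a median of 0.16. These are 75.0% and 8.33%, beside 41.1% of all tested genes called higher and 40.6% called lower. Zfand2a, an arsenite-inducible proteasome-binding protein, was higher by 0.43 and the polyubiquitin gene Ubb by 0.40. Zfand5, which stimulates the proteasome, was higher at 1 h (0.79, adjusted p = 5.79e-10) and did not pass at 12 h (0.08). Quantile normalization left Zfand5 called higher at 12 h (0.0969, limma adjusted p = 0.0332). After quantile normalization 5 of the 12 were higher and 1 lower at 12 h. The share higher, 41.7%, was then near the 37.6% of all tested genes, of which 43.7% were called lower.

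All 12 tested genes of MHC class I peptide supply were higher at 12 h, with a median of 0.45, and all 12 remained so after quantile normalization (0.40). Of all tested genes 41.1% were called higher as deposited and 37.6% after quantile normalization. H2-T23, a nonclassical class I heavy chain, was higher by 1.02 and Tapbp (tapasin), which holds class I on the peptide transporter, by 0.92. The genes beside Psmb8 differed in size: Tap1 was higher by 0.80 (8.85 ± 0.363 FPKM untreated, 16.2 ± 1.06 at 12 h) and Tap2 by 0.13 (4.60 ± 0.299 and 5.12 ± 0.259). At 1 h H2-K1 (0.80) and H2-D1 (0.27) were higher, and H2-T23, Tap2, B2m and Pdia3 were lower. These are 16.7% and 33.3% of the 12, beside 24.1% of all tested genes called higher and 34.9% called lower. After quantile normalization 2 were higher and 2 lower at 1 h. Tap2, like Psmb8, was lower at 1 h (-0.13, adjusted p = 0.0455), a call that quantile normalization did not keep (-0.06). Tap1 did not pass at 1 h (-0.13). Among the interferon-related genes, Irf7 (2.85) and Irf9 (0.66), which encode interferon regulatory factors, were higher at 12 h, and the receptor gene Ifngr1 was lower (-0.63). Irf1 was higher at 1 h (1.25) and did not pass at 12 h (0.09). After quantile normalization Irf1 was called higher at 12 h (0.15, limma adjusted p = 0.0224). Stat2 fell by 0.70 at 1 h, from 2.71 ± 0.246 to 1.29 ± 0.133 FPKM, and was higher by 0.55 at 12 h.

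As a check on the label, 8 of 12 microglia and macrophage markers were listed. Untreated means were 390.6 FPKM for Cd68, 90.5 for Trem2, 66.1 for Csf1r and 62.7 for Spi1. Adgre1 was at 36.6 FPKM, Itgam at 27.9 and Cx3cr1 at 6.27, and P2ry12 was listed below the tested level. Of 7 tested, 3 were higher at 12 h (Itgam, Adgre1 and Spi1) and 3 lower (Trem2, Cx3cr1 and Csf1r). These are 42.9% each, near the 41.1% of all tested genes called higher and the 40.6% called lower. After quantile normalization 3 markers were higher and 4 lower (42.9% and 57.1%, beside 37.6% and 43.7% of all tested genes). The 15 chosen markers of neurons, astrocytes, T or NK cells and endothelium were not analysed here, and of the oligodendrocyte markers Olig2 was listed below the tested level.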

How the data were processed

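Total RNA of BV2 cells was made into stranded mRNA libraries, per the labels' protocols. The authors deposited 1 table of FPKM values for 9 libraries, with p-values and q-values, a ranking score and a flag per gene, per the file headers. The submitters' processing notes list HTSeq, DESeq, Trimmomatic, Cufflinks and HISAT2 with no version, and GRCh38, a human build, although the symbols are mouse, so no gene position was taken from them. The flag is 1 in all 6462 rows and the highest deposited q-value is 0.09993: the rows had been selected for differing between these samples, and their p-values were not used.

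FPKM was compared as log2(FPKM + 1), which shrinks differences of low genes. Genes with a mean of at least 1 FPKM (5643, with 819 left out) were fitted together with limma 3.58.1 in R 4.3.3 (1 mean per group, eBayes with trend), and p-values were adjusted by Benjamini-Hochberg over all 5643. The code was tested on simulated data. SD is over the 3 libraries of a group. SE is that of the limma difference, with the spread pooled over all 9 libraries and adjusted by eBayes across genes. Log2 ratios of partner genes used FPKM without a pseudocount and exact permutation tests. Of 3 planned ratios 2 were tested, since Psmb9 was not analysed here. Read depth is unknown. From the steps between low values, 14 to 52 genes per library, the relative depths were estimated at 1 to 1.168. Promoters came from RefSeq (GRCm38.p6) and shared 50-base words from GENCODE M21.

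Values in every library are given for immunoproteasome, activator and inhibitor genes, for the members with the highest and lowest 12 h difference in each other role group, and for the 3 largest 1 h differences; of each other list the 2 largest at 12 h are named, and further genes in those lists were named after their values were seen. The count of the interferon list and 1 of its genes are not reported here. The members, lists and tests were chosen with earlier results of these data known. The 19 alternatives changed the pseudocount (0.1 or 0.5), the filter (none, or 5 FPKM), the scaling, the spread model, the libraries fitted together, the replicate block, or left out 1 library. No pairing of the libraries by replicate number was seen.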

Additional observations from a re-analysis of the deposited data

Results flagged for a closer look

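With FPKM as deposited, Psmb8 was the 1 member called in opposite directions at the 2 times: it fell by 0.16 on the log2 scale at 1 h and was 0.31 above untreated at 12 h, and the difference between 12 h and 1 h was itself called (0.47, limma adjusted p = 3.89e-07). All 3 libraries at 1 h were below, and all 3 at 12 h above, the 3 untreated libraries. The fall at 1 h lost its call without replicate 1 of the 1 h group (-0.12, adjusted p = 0.0532). After quantile normalization Psmb8 kept both calls (-0.23 and 0.16), and Psma6 (-0.11 and 0.11), Psmb6 (-0.09 and 0.18), Psmd3 (-0.07 and 0.19) and Psme2 (-0.12 and 0.30) were also called lower at 1 h and higher at 12 h.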

How the results depend on the processing

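Of the settings tried, quantile normalization moved the members most. Under it the counts were 3 higher and 12 lower at 1 h, 19 higher and 5 lower at 12 h, and 26 higher and 2 lower at 12 h against 1 h. Differences changed sign, with a call on one side or the other, for Psmc1 (-0.0216), Psmb6 (-0.0875), Psmd3 (-0.0684), Psma6 (-0.1055), Psmd2 (-0.0766) and Psmc3 (-0.0733) at 1 h. The same held at 12 h for Psma7 (-0.0353), Psma2 (-0.0462), Psmb3 (-0.0308), Psmd2 (-0.105), Psmb2 (-0.088), Psma4 (-0.1545), Psmc3 (-0.1795), Psma5 (-0.1217) and Psmd6 (-0.0356), and at 12 h against 1 h for Psma2 (-0.0237) and Psmd2 (-0.0284). The cause was not tested. Under the other 18 alternatives no called difference changed sign. Leaving out single libraries gave 3 to 9 members higher at 1 h, with 9 without replicate 3 of the 1 h group.

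The calls of the 2 ratios, log2 ratio Psmb8 over Psmb5 and log2 ratio Psmb10 over Psmb7, were lost with a pseudocount of 1 (adjusted p = 0.0607 for either) and with permutation within the replicate block (0.111 for either). Leaving out each library gave 0.0143 to 0.111 for the Psmb8 ratio and 0.0143 to 0.125 for the Psmb10 ratio, where fewer samples allow fewer arrangements. With the replicate number as a block the limma counts were 4 higher and 1 lower at 1 h, 34 and 0 at 12 h, and 33 and 0 at 12 h against 1 h, and no member's call changed. Deviations of libraries with the same number correlated at -0.0666 to 0.128, and those with different numbers at -0.146 to 0.139. No pairing by number was seen, but 3 libraries per group may not show it. Without read counts, counting error could not be set beside the spread between libraries.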
